A study of Sus scrofa with 24 samples.

Results

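The livers of 24 pig fetuses were ranked by the level of 4 red cell transcripts, and the 8 livers with the highest erythroid score were compared with the 8 livers with the lowest. The score was the mean of the z-scores of HBB, ALAS2, HEMGN and TFRC over all 24 livers, each gene read from its probe set with the highest mean level. The remaining 8 livers lay between both groups and stayed outside the fit. The arrays were chosen by these measured values, and no label of the study separates them. The fetuses were F2 crosses of German Landrace and Pietrain at 63 days post conception (dpc), and total RNA of each liver was hybridised to 1 Snowball array, an Affymetrix expression array for pig transcripts. The study compared growth-restricted with normally grown fetuses, but the labels give a fetus number only, so growth group, sex and dam could not be placed beside the score. Siblings entered as independent samples, which makes each p-value approximate. Whole liver tissue was measured, and in such bulk samples more red cell precursors and more RNA per precursor cannot be told apart.

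In mid-gestation the mammalian liver is a site of blood formation as well as a metabolic organ. Red cell precursors divide several times, load haemoglobin with heme, take up iron through the transferrin receptor and remodel their membrane and organelles before the nucleus is lost. Their RNA is mixed with that of hepatocytes, macrophages, granulocyte precursors, endothelial cells and stellate cells in a tissue sample.

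The score ran from 1.56 in fetus 274 to −1.37 in fetus 312. High-score livers lay at 0.39, 1.09 and 1.56 (lowest, median and highest), against −1.37, −0.79 and −0.39 in low-score livers. The boundaries fell between livers that were nearly alike. Fetus 329 entered the high-score group at 0.392, whereas fetus 320 stayed outside at 0.379. Fetus 283 entered the low-score group at −0.394, whereas fetus 360 stayed outside at −0.393 and fetus 297 at −0.390.

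**Figure D1:**
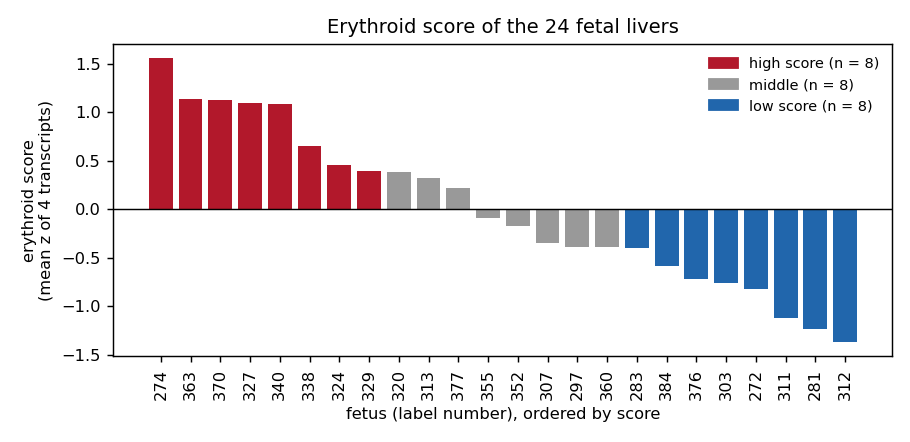
Erythroid score (mean z-score of 4 transcripts, y axis) of the 24 fetal livers, ordered by score and named by fetus number (x axis), with the 8 high-score livers in red, the 8 livers between in grey and the 8 low-score livers in blue. The score falls in small steps, and fetus 329 at 0.392 borders fetus 320 at 0.379.

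The 4 transcripts that made the score are given as a description without a test. HBB, the beta chain of haemoglobin, had log2 levels of 12.24, 12.32 and 12.38 in high-score livers (lowest, median and highest), against 12.11, 12.20 and 12.33 in low-score livers. These ranges overlapped, and HBB spanned 1.21-fold over all 24 livers. ALAS2, the first enzyme of heme synthesis in red cell precursors, lay at 10.48, 10.60 and 10.84 in high-score livers and at 9.94, 10.33 and 10.52 in low-score livers, again with overlap. HEMGN, a nuclear protein of blood precursors, lay at 11.16, 11.33 and 11.46 in high-score livers, against 10.71, 10.90 and 11.02 in low-score livers. TFRC, the receptor that takes up transferrin-bound iron, lay at 10.27, 10.42 and 10.82 in high-score livers, against 9.59, 9.93 and 10.18 in low-score livers. The groups were separate for HEMGN and TFRC. These genes also carried most of the ranking, since Pearson's r with the mean of the other score genes was 0.89 for TFRC, 0.86 for HEMGN, 0.61 for ALAS2 and 0.43 for HBB over 24 livers. Between HBB and ALAS2 it was 0.15. A second HBB probe set, at medians of 4.38 in high-score livers and 4.48 in low-score livers, did not pass the level filter and ran the other way. A second TFRC probe set was dim as well, at medians of 4.30 in high-score livers and 3.89 in low-score livers.

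Among 3367 other genes whose log2 level reached 6 in at least 18 of 24 arrays, 325 were higher in high-score livers (9.65% of the genes tested) and 71 were lower (2.11%) by limma with Benjamini-Hochberg adjustment at 0.05. Without adjustment 938 genes had a p under 0.05, of which 601 were higher and 337 lower. The test asks only whether the level of a gene went with the 4 score transcripts in the same RNA. Differences were small. The median fold was 1.27 among the genes called higher and 1.22 among those called lower, and 23 and 4 genes exceeded 1.5-fold. None of the genes called higher reached 2-fold, whereas HAMP and SLC17A2, both near background in high-score livers, did so among those called lower. The groups did not overlap for 25 genes that were higher (0.743% of the genes tested) and for 2 that were lower (0.0594%), and all of these were called. The median difference of all genes was −0.01. When the medians of the arrays were aligned, 289 genes were higher and 127 lower, so the split between directions depended on the scaling. The 95th percentile of the 69 background controls lay at 6.52 to 6.89 on the different arrays, and 195 of the genes called higher and 44 of those called lower had their lowest level in or below that range, where folds are approximate.

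**Figure D2:**
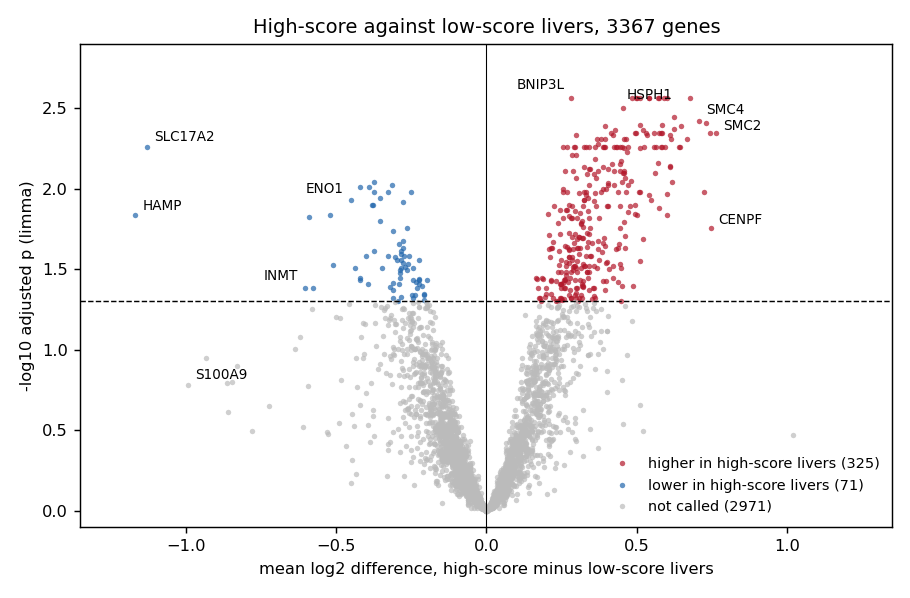
Mean log2 difference between high-score and low-score livers (x axis) and −log10 of the limma adjusted p (y axis) for 3367 genes, with the 325 genes called higher in red, the 71 called lower in blue and the others in grey. The dashed line marks an adjusted p of 0.05. Most calls lie to the right, whereas HAMP and SLC17A2 stand farthest to the left among the called genes.

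Other probe sets of the called genes were read on the same arrays and are no further samples. Of those that passed the level filter, 93 of 95 for 65 genes called higher had the same sign, as had 12 of 12 for 11 genes called lower. Of those below the filter, 251 of 338 for 180 genes called higher and 35 of 46 for 28 genes called lower had the same sign.

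Part of the red cell genes outside the score was higher in high-score livers. The 5 lists of red cell genes were joined (globins, heme synthesis, red cell membrane, erythroid regulators and red cell maturation). Of 53 tested members, 21 were called higher (39.6%, against 9.65% of all genes) and none lower (2.11% of all genes). The 21 include SOX6, which passed the level filter with the fewest arrays it allows. Means lay above 0 for 48 of 53. The median difference was 0.22, against −0.01 over all genes. A score of the other tested globin, heme synthesis and membrane genes lay at 0.01, 0.50 and 1.24 in high-score livers. In low-score livers it lay at −1.77, −0.43 and 0.19, so the groups overlapped. Its r with the erythroid score over 24 livers was 0.75, and its highest value, 1.41, was that of fetus 320, outside both groups. The number called higher was 10 of 53 without fetuses 311 and 312 and 6 of 53 without fetuses 274, 311 and 312, at median differences of 0.19 and 0.16. Over all genes 5.23% and 3.47% were called higher in the same fits. With the granulocyte level as a covariate 8 of 53 were called higher, against 4.58% of all genes. With the first principal component of the tested genes as a covariate limma called no gene at all. At an unadjusted p under 0.05, 208 genes were higher and 80 lower. No red cell gene of these lists was called lower in any of these fits. Other fits did call some lower. With the score as a continuous covariate, 1 erythroid regulator and 1 gene of red cell maturation were lower. The score without ALAS2 gave 1 lower erythroid regulator. A threshold of 0.1, and the fit without fetus 338, each gave 1 lower gene of red cell maturation.

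Heme synthesis had 5 of 10 tested members called higher, against 9.65% of all genes, and none lower. The median difference was 0.25, and all 10 means lay above 0. UROS, which forms the ring of uroporphyrinogen III, lay at 8.96, 9.07 and 9.23 in high-score livers, against 8.67, 8.77 and 8.93 in low-score livers. Every high-score liver exceeded every low-score liver for UROS, by a mean of 0.30 ± 0.06 (SE; adjusted p = 0.00462). CPOX, a mitochondrial enzyme later in the pathway, lay at 8.97, 9.22 and 9.37 in high-score livers and at 8.48, 8.81 and 9.10 in low-score livers (difference 0.36 ± 0.08, adjusted p = 0.00858). Its ranges overlapped, with 6 of 8 high-score livers above the highest low-score liver. ABCB10, a transporter of the inner mitochondrial membrane, differed by 0.33 ± 0.07 (adjusted p = 0.00554), SLC25A37, which imports iron into mitochondria, by 0.32 ± 0.08 (adjusted p = 0.0159) and FECH, which inserts iron into the heme ring, by 0.29 ± 0.08 (adjusted p = 0.0308). For SLC25A37 the highest level, 9.68, was that of fetus 274. ALAS1 and SLC25A38 lay below the level filter.

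Of the red cell membrane genes, 9 of 16 were called higher, against 9.65% of all genes, and none lower. The median difference was 0.29. TMOD1, which caps actin filaments of the membrane skeleton, lay at 6.61, 6.78 and 6.94 in high-score livers, against 6.16, 6.32 and 6.68 in low-score livers, a difference of 0.42 ± 0.08 (adjusted p = 0.00448). Fetus 311 gave the 6.68, and the other low-score livers stayed at or below 6.48. AQP1, a water channel, had 8.97, 9.07 and 9.32 in high-score livers and 8.40, 8.86 and 9.03 in low-score livers (difference 0.34 ± 0.09, adjusted p = 0.0187). ERMAP, an erythroid membrane protein, differed by 0.32 ± 0.08 (adjusted p = 0.0105). Its second probe set ran the other way, with a difference of −0.40 and an r of −0.30 with the one used, so the direction of ERMAP rests on the choice of probe set. The other called members were SPTB, KEL, ADD2, SLC4A1, EPB42 and RHAG, at differences of 0.26 to 0.32, whereas ADD1, a skeleton protein of many cell types, differed by −0.03 (adjusted p = 0.763).

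Among regulators of red cell formation, 3 of 11 tested members were called higher (27.3%, against 9.65% of all genes) and none lower. SOX6, a transcription factor of late red cell precursors, lay at 6.18, 6.42 and 6.61 in high-score livers, against 5.41, 5.80 and 6.22 in low-score livers. The difference was 0.58 ± 0.11 (adjusted p = 0.00448), but the medians of both groups lay below the background range, and SOX6 reached 6 in 18 of 24 arrays, the fewest that the filter allows. TAL1, a factor needed for blood formation, lay at 8.71, 8.89 and 9.10 in high-score livers and at 8.21, 8.58 and 8.88 in low-score livers (difference 0.34 ± 0.09, adjusted p = 0.0215). Its 3 further probe sets with a mean level above 6 differed by 0.14, 0.29 and 0.35. BCL11A, a repressor of globin genes in human and mouse, differed by 0.34 ± 0.08 (adjusted p = 0.0114). LDB1, STAT5A and STAT5B differed by 0.01, −0.00 and 0.09 and were not called. KLF1, a master regulator of red cell genes, did not pass the level filter, with medians of 5.42 in high-score livers and 5.37 in low-score livers.

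Of 13 tested genes of red cell maturation, 4 were called higher (30.8%, against 9.65% of all genes) and none lower. BNIP3L, which directs mitochondria to removal in maturing red cells, lay at 10.35, 10.43 and 10.49 in high-score livers, against 10.001, 10.15 and 10.27 in low-score livers. The groups were separated by 0.08 at a mean difference of 0.28 ± 0.05 (adjusted p = 0.00272). BPGM, which makes the bisphosphoglycerate that lowers the oxygen affinity of haemoglobin, lay at 8.64, 8.95 and 9.23 in high-score livers and at 8.0, 8.57 and 8.95 in low-score livers (difference 0.40 ± 0.12, adjusted p = 0.0374). XPO7, a nuclear export factor, differed by 0.30 ± 0.08 (adjusted p = 0.0152) and RNF123, a ubiquitin ligase, by 0.26 ± 0.08 (adjusted p = 0.0387). BPGM lost its call when any of 9 arrays was left out. SELENBP1 had the opposite sign at −0.31 (adjusted p = 0.0959).

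The globin list held 3 tested members and none was called by limma, although 2 had an unadjusted p under 0.05. Means lay above 0 for 2 of them and below 0 for 1. AHSP, the chaperone of alpha globin, lay at 7.74, 7.80 and 8.28 in high-score livers, against 7.52, 7.70 and 7.92 in low-score livers (difference 0.23 ± 0.09, adjusted p = 0.112). HBE1, an embryonic globin, did not pass the filter, with medians of 5.29 in high-score livers and 5.24 in low-score livers.

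**Figure D3:**
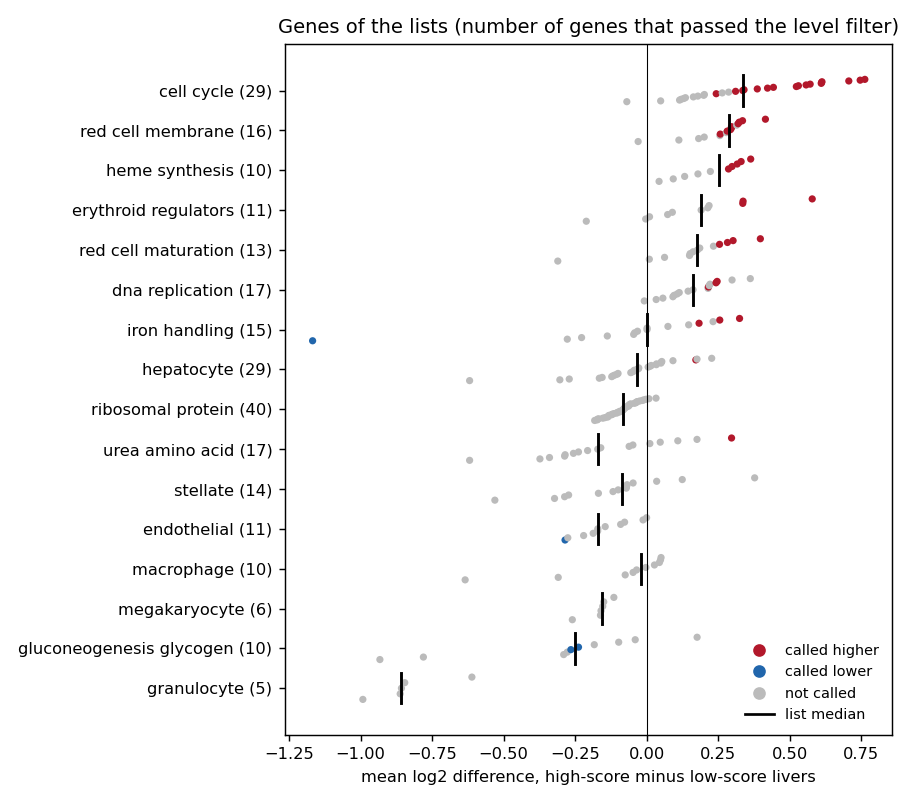
Mean log2 difference between high-score and low-score livers (x axis) of each tested gene in 16 gene lists (y axis, number of tested genes in brackets), with genes called higher in red, genes called lower in blue, others in grey and the list median as a black bar. The cell cycle list reaches 0.76 with 17 of 29 genes called higher, against 9.65% of all genes. The 5 granulocyte genes lie near −0.86 with no call.

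Of 29 tested cell cycle genes, 17 were called higher (58.6%, against 9.65% of all genes) and none lower. Means lay above 0 for 28 of 29, and the median difference was 0.34. SMC2, a core subunit of condensin, which compacts chromosomes, lay at 6.77, 7.41 and 7.67 in high-score livers, against 6.14, 6.45 and 7.15 in low-score livers. Its difference of 0.76 ± 0.14 (1.70-fold, adjusted p = 0.00451) was the largest among all called genes that were higher. Fetus 283, at the edge of the low-score group, gave the 7.15, and fetuses 329 and 338 gave the lowest high-score values. SMC4, the partner of SMC2, lay at 7.80, 8.26 and 8.37 in high-score livers and at 7.15, 7.43 and 8.08 in low-score livers (difference 0.71 ± 0.12, adjusted p = 0.00382). CENPF, a protein of the kinetochore, lay at 6.95, 7.82 and 7.96 in high-score livers and at 6.44, 6.74 and 7.82 in low-score livers (difference 0.75 ± 0.19, adjusted p = 0.0175). All 3 genes had overlapping groups.

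TOP2A, which untangles replicated DNA, lay at 7.51, 8.16 and 8.29 in high-score livers, against 7.0, 7.42 and 7.83 in low-score livers, a difference of 0.57 ± 0.12 (adjusted p = 0.00686). The mitotic motor KIF11, the spindle proteins ASPM and DLGAP5 and the checkpoint kinase TTK differed by 0.56 to 0.61. CDK1, the kinase that drives entry into mitosis, differed by 0.44 ± 0.09 (adjusted p = 0.00705) and its partner CCNB1 by 0.34 ± 0.08 (adjusted p = 0.00946). MKI67, PLK1, AURKB and CDC20 were not called, at differences of 0.05 to 0.26. The mean level of the 29 genes was 7.01, 7.32 and 7.44 in high-score livers, against 6.79, 6.88 and 7.08 in low-score livers. Only fetus 329 among the high-score livers lay below a low-score liver, namely fetuses 283 (7.08) and 272 (7.03). Over 24 livers this mean had an r of 0.90 with the score, against 0.75 for the score of other erythroid genes. Without fetuses 274, 311 and 312, 11 of the 29 genes were called higher, against 3.47% of all genes, and with the first principal component as a covariate none was.

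Of 17 tested replication genes, 3 were called higher (17.6%, against 9.65% of all genes) and none lower. The median difference was 0.16, and 11 were higher at an unadjusted p under 0.05, against 601 of all 3367 genes. PCNA, the sliding clamp of DNA polymerases, lay at 9.17, 9.38 and 9.59 in high-score livers, against 9.0, 9.16 and 9.25 in low-score livers (difference 0.22 ± 0.06, adjusted p = 0.0368). POLA1 and PRIM1, subunits of the polymerase that starts each strand, differed by 0.25 ± 0.07 and 0.24 ± 0.07 (adjusted p = 0.033 and 0.0297) close to background. None of the 3 was called without fetuses 311 and 312. MCM4 and MCM7, subunits of the replicative helicase, differed by 0.09 and 0.06 and were not called.

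The 10 genes with the largest differences among those called higher also included SHCBP1, ATAD5, S100G, KIF15, IFIT1, EAF2 and TPR. ATAD5, which unloads PCNA from DNA, lay at 7.76, 7.99 and 8.45 in high-score livers and at 7.01, 7.20 and 7.88 in low-score livers (difference 0.73 ± 0.13, adjusted p = 0.00392). SHCBP1 and the mitotic kinesin KIF15 differed by 0.74 ± 0.14 and 0.68 ± 0.11. These 3 genes act in dividing cells and stand outside the lists used here. S100G, a calcium-binding protein, was well above background at 9.93, 10.65 and 11.09 in high-score livers, against 9.39, 9.97 and 10.36 in low-score livers (difference 0.72 ± 0.17, adjusted p = 0.0105). IFIT1, an interferon-induced protein, lay at 6.26, 6.70 and 7.12 in high-score livers, against 5.64, 6.04 and 6.30 in low-score livers. Its difference was 0.67 ± 0.13 (adjusted p = 0.0049), but r with the score over 24 livers was 0.39. A second IFIT1 probe set, at a mean level of 6.24, differed by 0.19. IFI6, the other tested interferon gene, differed by 0.23 (adjusted p = 0.743). The remaining 20 interferon genes on the array did not pass the filter. EAF2, an elongation cofactor, and TPR, a protein of the nuclear pore basket, differed by 0.65 ± 0.12 and 0.64 ± 0.13.

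**Figure D4:**
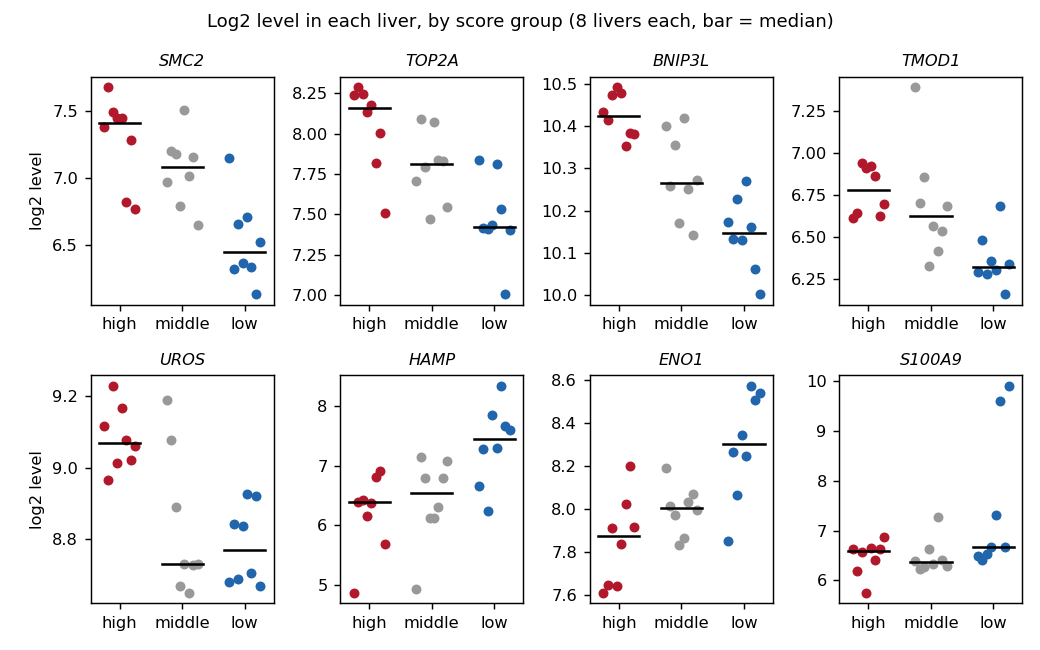
Log2 level (y axis) of 8 genes in each liver, with high-score livers in red, the livers between in grey and low-score livers in blue (x axis, 8 livers each, ordered by falling score within a group) and the median as a black bar. UROS and BNIP3L have separate high-score and low-score groups, HAMP and ENO1 run the other way, and for S100A9 fetuses 311 and 312 stand at 9.61 and 9.91 in the low-score group.

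The 5 genes with the widest gap between groups were HSPH1, BNIP3L, ITGA4, MED1 and PTPN11. HSPH1, a chaperone that works with heat shock protein 70, lay at 6.52, 6.68 and 6.88 in high-score livers, against 5.99, 6.28 and 6.41 in low-score livers. The gap between the groups was 0.11 at a difference of 0.45 ± 0.08 (adjusted p = 0.00314). HSPH1 was the sole call among 9 tested heat shock genes, against 9.65% of all genes called higher. ITGA4, an integrin by which blood precursors attach to their niche, lay at 6.60, 6.88 and 7.16 in high-score livers and at 6.03, 6.33 and 6.52 in low-score livers (difference 0.58 ± 0.10, adjusted p = 0.00272). MED1, a subunit of the Mediator complex, and PTPN11, a phosphatase of growth factor signalling, differed by 0.24 ± 0.06 and 0.25 ± 0.06. In the other direction only ALG2 and KALRN had separate groups. ALG2, a mannosyltransferase of glycan assembly, lay at 5.84, 6.09 and 6.22 in high-score livers, against 6.27, 6.33 and 6.42 in low-score livers. The livers between had a median of 6.06, below that of high-score livers, so ALG2 did not follow the order of the score. KALRN, an exchange factor for small GTPases, differed by −0.31 ± 0.07 (adjusted p = 0.00953). All levels of ALG2 lay below the background range of 6.52 to 6.89, and all levels of KALRN and HSPH1 lay in or below it. The low-score levels of ITGA4 lay in or below it as well, so these gaps and differences are approximate.

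Some genes outside the score followed it more closely than HBB, whose r with the full score was 0.66 although it formed part of it. TRAK2, an adaptor for transport of mitochondria, had an r of 0.93 over 24 livers, TOP1 0.90, and NCAPG, NCOA4, DCUN1D1 and XPO1 0.89 each. TRAK2 lay at 9.40, 9.63 and 9.75 in high-score livers, against 8.88, 9.13 and 9.34 in low-score livers, without overlap. Its 3 further probe sets with a mean level above 6 differed by 0.47, 0.59 and 0.61. TOP1, a topoisomerase, had 8.50, 8.86 and 9.0 in high-score livers and 8.11, 8.32 and 8.57 in low-score livers. At the negative end stood PLOD1 at −0.83, ENO1 at −0.81, PYGL at −0.77, ZYX and ERBB3 at −0.76 and −0.75, and SCAMP2 at −0.75. All values come from the same arrays, and these correlations are descriptions without a test.

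Of 15 tested iron genes, 3 were called higher and 1 lower, against 9.65% and 2.11% of all genes. The median difference was 0.00. NCOA4, which delivers ferritin for iron release, lay at 9.86, 9.95 and 10.17 in high-score livers and at 9.58, 9.70 and 9.85 in low-score livers (difference 0.26 ± 0.05, adjusted p = 0.00554). IREB2, an iron-sensing RNA-binding protein that protects TFRC mRNA, lay at 7.60, 7.81 and 8.0 in high-score livers, against 7.38, 7.49 and 7.58 in low-score livers (difference 0.33 ± 0.07, adjusted p = 0.00554). Neither gene had overlapping groups. SLC11A2, an iron transporter of the endosome, differed by 0.18 ± 0.05 (adjusted p = 0.0359) and lost its call when any of 10 arrays was left out. The plasma iron carrier TF, the ferritin chain FTL and the iron exporter SLC40A1 differed by 0.07, 0.00 and 0.15 and were not called.

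HAMP encodes hepcidin, the hepatocyte hormone that lowers iron release into plasma, and was the called iron gene that was lower. It lay at 4.87, 6.39 and 6.91 in high-score livers, against 6.24, 7.45 and 8.35 in low-score livers (difference −1.17 ± 0.29, adjusted p = 0.0146). The high-score median lay below the background range of 6.52 to 6.89, so the size of the difference is approximate. Fetus 274, with the highest score, had the 4.87, and fetus 376 had the 6.24. When each array was left out in turn, the adjusted p of HAMP did not exceed 0.033. The call was lost without fetuses 311 and 312 (adjusted p = 0.0538), without fetuses 274, 311 and 312 (0.0671), with 12 against 12 livers (0.0542), with the score of other erythroid genes (0.301) and with the granulocyte level (0.075) or the first component (0.685) as a covariate. A second HAMP probe set, dimmer at a mean level of 4.93, differed by −0.57. TFR2, an iron sensor of hepatocytes, differed by −0.23 (adjusted p = 0.161), and BMP6 and TMPRSS6 did not pass the filter.

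SLC17A2, a phosphate and anion transporter, lay at 5.95, 6.43 and 7.23 in high-score livers, against 6.50, 7.70 and 8.34 in low-score livers. The difference was −1.13 ± 0.23 (adjusted p = 0.00548), with 5 of 8 high-score livers below the lowest low-score liver. The high-score median was below the background range, so this size is approximate as well, and the call was lost in 4 of 36 alternative fits. The methyltransferase INMT, the membrane protein TM4SF5 and the stress factor ATF5 differed by −0.60 ± 0.19, −0.59 ± 0.15 and −0.58 ± 0.18, and INMT and ATF5 lost their calls when any of 11 and 9 arrays was left out. SHMT2, which supplies one-carbon units in mitochondria, lay at 6.93, 7.35 and 7.73 in high-score livers and at 7.45, 7.79 and 8.31 in low-score livers (difference −0.52 ± 0.13, adjusted p = 0.0146). HSD17B2, a steroid dehydrogenase, differed by −0.51 ± 0.14 (adjusted p = 0.0296). PGD, of the pentose phosphate pathway, and the gene the array lists as AS-A, a synonym of the lysosomal sulfatase ARSA in RefSeq, differed by −0.44 ± 0.13 and −0.42 ± 0.12 near background.

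Most metabolic genes were not called. ENO1, a glycolytic enzyme that also stands in the hypoxia list, lay at 7.61, 7.87 and 8.20 in high-score livers, against 7.85, 8.30 and 8.57 in low-score livers (difference −0.45 ± 0.11, adjusted p = 0.0118). It was the sole call among 11 tested glycolysis genes, against 2.11% of all genes called lower. Of 10 genes of gluconeogenesis and glycogen, 2 were lower, against 2.11% of all genes, and none higher. The median difference was −0.25, and 9 of 10 means lay below 0. Without adjustment 5 of these genes were lower and 1 higher at a p under 0.05. PYGL, liver glycogen phosphorylase, lay at 8.88, 9.07 and 9.18 in high-score livers and at 9.14, 9.31 and 9.57 in low-score livers, and 7 of 8 high-score livers were below the lowest low-score liver (difference −0.26 ± 0.07, adjusted p = 0.0175). SLC37A4, the transporter of glucose 6-phosphate, differed by −0.24 ± 0.07 (adjusted p = 0.0458). G6PC, which releases glucose, differed by −0.93 ± 0.38 but varied too widely to be called (adjusted p = 0.113). In the hypoxia list, 2 of 11 genes were lower, against 2.11% of all genes. These were ENO1 and BNIP3 (difference −0.26 ± 0.08, adjusted p = 0.0321), while VEGFA, HIF1A and SLC2A1 were not called.

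In fatty acid oxidation, 1 of 22 genes was higher and 1 lower, against 9.65% and 2.11% of all genes. ACAA1, a peroxisomal thiolase, lay at 7.33, 7.46 and 7.83 in high-score livers, against 7.60, 7.93 and 8.13 in low-score livers (difference −0.37 ± 0.09, adjusted p = 0.0105). ACSL4, which activates polyunsaturated fatty acids, was higher by 0.32 ± 0.10 (adjusted p = 0.048) and lost its call when any of 13 arrays was left out. The list's median difference was −0.00. Cholesterol synthesis had no call by limma in 13 genes at a median of −0.14. In this list 5 genes were lower at an unadjusted p under 0.05, against 337 of all 3367 genes, and none higher.

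Hepatocyte markers were abundant in both groups, and their mean level was 11.16, 11.25 and 11.34 in high-score livers and 11.24, 11.29 and 11.42 in low-score livers. Of 29 tested hepatocyte genes, 1 was called higher, against 9.65% of all genes, and none lower. The median difference was −0.03. APOB, the protein of very low density lipoprotein, had the call, at a difference of 0.17 ± 0.05 (adjusted p = 0.0416), and lost it when any of 11 arrays was left out. ALB, AFP and TTR differed by 0.23, 0.03 and 0.02 and were not called. Of 17 urea and amino acid genes, 1 was called higher, against 9.65% of all genes, and none lower. This was ARG1, which cleaves arginine to urea and ornithine (difference 0.30 ± 0.09, adjusted p = 0.0309). The list's median was −0.17, and 12 of 17 means lay below 0. Without adjustment 5 of its genes were lower and 1 higher at a p under 0.05. With the mean hepatocyte level as a covariate, 257 genes were higher and 39 lower.

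Ribosomal protein genes had no call by limma in 40 tested members, but 38 of 40 means lay below 0, at a median difference of −0.08. Of these, 7 were lower at an unadjusted p under 0.05, against 337 of all 3367 genes. RPS18 had the widest difference, at 8.96, 9.17 and 9.43 in high-score livers and 9.22, 9.38 and 9.56 in low-score livers (difference −0.18 ± 0.07, adjusted p = 0.121).

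Markers of granulocytes stood high in a few livers. The 5 tested granulocyte genes (MPO, S100A8, S100A9, S100A12 and PGLYRP1) had a mean level of 6.84, 7.40 and 7.60 in high-score livers, against 7.13, 7.58 and 10.23 in low-score livers. Fetuses 312 and 311, at 10.23 and 10.16, stood far above the other low-score livers, which reached 7.93 at most. None of the 5 was called by limma, and 3 were lower at an unadjusted p under 0.05, against 337 of all 3367 genes. The median difference of −0.86 was −0.22 without both fetuses. S100A9 lay at 5.75, 6.59 and 6.87 in high-score livers and at 6.42, 6.67 and 9.91 in low-score livers (difference −0.99 ± 0.46, adjusted p = 0.164). The other 7 granulocyte genes on the array, LTF, CSF3R, CEBPE, LCN2, BPI, NCF1 and MMP9, did not pass the filter. Without both fetuses 176 genes were higher and 45 lower, and with the granulocyte level as a covariate 154 were higher and 26 lower. The part of these cells in the other results was not tested beyond these fits.

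Macrophage genes had no call by limma in 10 tested members and 1 unadjusted p under 0.05, that of TYROBP (difference −0.63 ± 0.24, adjusted p = 0.0983), at a median difference of −0.02. The 6 megakaryocyte and platelet genes all lay below 0 at a median of −0.16, with no call and no unadjusted p under 0.05. Early progenitor genes were dim. Of 12 on the array, 3 passed the filter and none was called or had an unadjusted p under 0.05, and CD34 had medians of 3.93 in high-score livers and 4.10 in low-score livers. Lymphocyte genes were largely below the filter, with 1 of 19 tested and not called (CD4, difference −0.10, adjusted p = 0.63), and the T cell marker CD3E at medians of 1.56 in high-score livers and 1.49 in low-score livers. Stellate cell genes (14 tested) and biliary genes (2 tested) had no call by limma, at medians of −0.09 and −0.12, with 2 and 1 genes at an unadjusted p under 0.05.

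Endothelial genes had 1 call in 11, which was lower, against 2.11% of all genes. KDR, the main receptor for vascular endothelial growth factor, lay at 7.65, 7.85 and 7.95 in high-score livers, against 7.81, 8.13 and 8.39 in low-score livers (difference −0.29 ± 0.08, adjusted p = 0.0243, and 0.0517 without fetus 281). The median of the list was −0.17, and its mean level had an r of −0.62 with the score over 24 livers. Immediate early genes (3 tested) and growth and imprinted genes (10 tested) had no call and no unadjusted p under 0.05.

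The called genes differed in a property that the score did not use, the length of the gene in the RefSeq annotation of the pig genome. The span was known for 320 of the 325 genes called higher, with a median of 55.8 kb, for 69 of the 71 called lower, with a median of 16.9 kb, and for 3295 tested genes, with a median of 32.9 kb. When these genes were divided into 4 equal groups by span, 3.52%, 7.52%, 13.97% and 13.84% were called higher from the shortest to the longest group, against 9.65% over all genes. The share called lower was 3.64%, 2.31%, 1.34% and 1.09%. The median difference of a group was −0.06, −0.02, 0.03 and 0.05. Without fetuses 274, 311 and 312 these groups had 1.21%, 2.67%, 5.47% and 4.85% of genes higher, against 3.47% over all genes. Mean levels of the genes had medians of 7.08 for genes called higher, 7.10 for genes called lower and 7.06 for all tested genes. Levels were not compared between the groups by span. The polyA spike-in controls, which are added before labelling, had a mean of 6.54, 7.03 and 7.33 in high-score livers and 7.14, 7.23 and 7.40 in low-score livers. Their high-score median thus lay below the lowest low-score liver, and their r with the score over 24 livers was −0.28. The part of gene level, labelling or RNA integrity in the pattern over gene span was not tested.

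**Figure D5:**
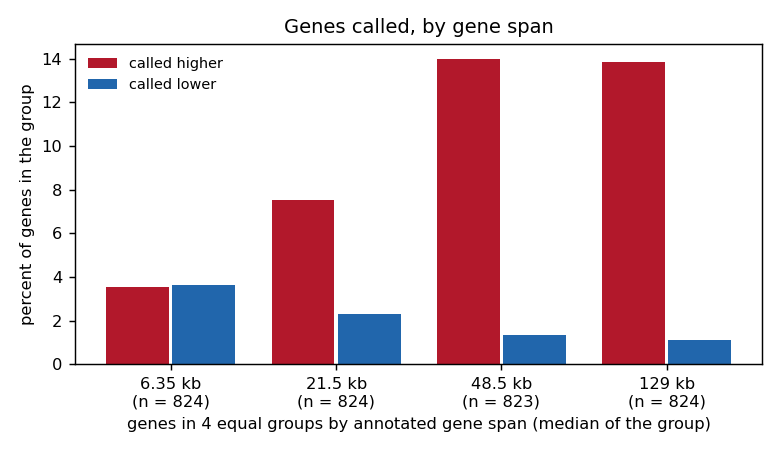
Percent of tested genes called higher (red) and lower (blue) in high-score livers (y axis) in 4 equal groups by gene span (x axis, median span in kb and number of genes). The share called higher is 3.52% in the shortest and 13.84% in the longest group, and the share called lower is 3.64% and 1.09%.

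One broad pattern ran through the tested genes together with the score. The first principal component lay at −1.26, 4.90 and 8.09 in high-score livers, against −14.23, −5.33 and 4.94 in low-score livers, with the lowest values in fetuses 311 and 312, and its r with the score was 0.81. With this component as a covariate no gene was called by limma in either direction, and 208 genes were higher and 80 lower at an unadjusted p under 0.05. The component was computed from the same tested genes on the same arrays, so this fit cannot separate it from the score. The ranges of the upper background level overlapped, at 6.56, 6.71 and 6.75 in high-score livers and 6.52, 6.68 and 6.79 in low-score livers, and with it as a covariate 311 genes were higher and 64 lower.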

How the data were processed

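The deposited table holds log2 levels that the authors made from 24 arrays with the RMA algorithm, which corrects the background, equalises the array distributions and summarises probe sets. GCOS 1.1.1 is named in the submitters' processing notes. No source used here gives the genome build of the probes. An array has no depth, so the number of arrays and the background level limit precision.

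The platform annotation names 26426 of 47845 probe sets with 1 symbol each. The probe set with the highest mean represented a gene, and genes with a log2 level of at least 6 in at least 18 of 24 arrays were tested. High-score and low-score livers, 8 each, were compared with limma 3.58.1 (lmFit and eBayes with trend, R 4.3.3), two-sided, with Benjamini-Hochberg adjustment over 3367 genes. The fit was checked on simulated data with known differences. Noise there was independent for each gene and array, so the check gives no error rate for the calls reported here. A difference is the mean log2 level of high-score livers minus that of low-score livers, ± SE from the fit. Gene spans are those of the RefSeq annotation of Sscrofa11.1, joined by symbol. Python 3.11.15, numpy 2.4.6, pandas 2.3.3, scipy 1.17.1 and matplotlib 3.10.9 were used.

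Genes named are the score genes, the 10 largest called differences and the 5 widest gaps in each direction, up to 3 called genes in each direction per list (or the widest difference where none was called), and the 6 genes most like and most unlike the score. Others named as members of lists or as genes below the filter were chosen after their values were seen. The score, the arrays and the gene lists were chosen with earlier results of these data known. Alternatives were other filters, probe sets, scalings, group sizes, scores, covariates, a threshold of 0.1 and fits without single arrays. A fit with the first component or the granulocyte level as a covariate, and one without fetuses 274, 311 and 312, were added after the data were seen. Tables of the paper were not used.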

Additional observations from a re-analysis of the deposited data

Results flagged for a closer look

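Single livers stood apart from the other 7 of their group in 7 of the genes named here, by the gap to the nearest liver relative to the range of the group. These were 7 of 154 groups checked, and chance alone flags about 1 in 20 groups. ALG2 was 5.84 in fetus 338, the lowest high-score liver, with the next at 6.05. DCUN1D1 was 8.06 in fetus 329 and INSIG1 6.86 in fetus 370, both lowest among high-score livers, with the next at 8.30 and 7.30. SLC25A37 was 9.68 in fetus 274, the highest high-score liver, with the next at 9.37. Among low-score livers, the lowest were fetus 376 for CD4 (6.51, next 7.12), fetus 311 for SLC37A4 (7.89, next 8.11) and fetus 283 for SCAMP2 (8.86, next 9.12).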

How the results depend on the processing

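Of 325 genes higher and 71 lower in high-score livers, counts moved by more than 1.5 times as follows, and the cause was not tested. A level limit of 7 gave 155 higher and 36 lower among 1602 genes, the probe set with the largest SD 201 and 47, and the mean of all probe sets 171 higher. No filter left 33 lower. Aligned array medians gave 127 lower, and a threshold of 0.1 gave 179 lower. The score as a continuous covariate over 24 arrays gave 520 higher and 273 lower, 6 against 6 livers 197 lower, and 12 against 12 livers 109 higher and 22 lower. Scores without HEMGN or TFRC gave 145 and 111 lower. A score of the other erythroid genes gave 173 higher, of which 118 were shared, and 6 lower, of which 2 were shared. Without fetuses 311 and 312 the counts were 176 and 45, and with the hepatocyte covariate 39 were lower. Of the alternatives added after seeing the data, the first component covariate gave 0 and 0 by limma (208 higher and 80 lower unadjusted), the granulocyte covariate 154 and 26, and the fit without fetuses 274, 311 and 312 gave 117 and 21. Leaving out single arrays gave 213 to 380 higher and 28 to 174 lower. The higher count left the 1.5-fold range without fetus 370 (213), and the lower count without fetuses 281 (28), 327 (30), 340 (35), 303 (36), 363 and 370 (40 each), 312 (45), 272 (47), 329 (113) and 283 (174).

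Directions of named genes turned in 13 cases. ERMAP had −0.40 with the largest-SD probe set and −0.0375 with the mean of all probe sets, and CLDN4 had 0.0258 with the score of other erythroid genes. With the first component covariate, differences were 0.0057 for PGD, 0.15 for ETV6, 0.51 for S100A9, 0.0296 for GP1BB, 0.15 for TYROBP, 0.0232 for CLDN4, 0.17 for INSIG1, 0.14 for DUSP1, 0.52 for IGFBP1 and 0.0377 for ZYX. Of these genes ERMAP and PGD were called in the fit as reported. Among called genes, HSD17B2, PGD, AS-A, POLA1, PRIM1, PCNA, ARG1, SLC37A4, BNIP3 and SCAMP2 lost their call without any of 6 to 12 single arrays each. The study selected sibling pairs, but no paired analysis was possible because the labels give neither growth group nor dam.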

Other observations

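Red cell microRNAs were read at low levels by this array. The pig probe set for miR-486, a microRNA abundant in red cells, lay at 5.51, 5.80 and 6.30 in high-score livers (lowest, median and highest), against 5.15, 5.91 and 6.49 in low-score livers, and reached 6 in 8 of 24 arrays. The cattle probe sets for miR-144 and miR-451, which are made from a shared transcript in red cell precursors, had medians of 1.03 and 0.77 in high-score livers and 1.18 and 1.07 in low-score livers. The human probe set for miR-451 ran the other way, with medians of 1.78 in high-score livers and 1.37 in low-score livers. These values are given as a description, since none passed the level filter.

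OSTC, a subunit of the oligosaccharyltransferase, had the largest positive difference of all tested genes, 1.02 ± 0.67, and was not called (adjusted p = 0.337). Its levels ran from 4.51 to 9.17 in high-score livers and from 4.42 to 8.49 in low-score livers. IGFBP1, a binding protein for insulin-like growth factors, spanned 7.69 to 12.09 in high-score livers, against 9.92 to 12.06 in low-score livers, and was not called (difference −0.78 ± 0.49, adjusted p = 0.321).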
